A study of Sus scrofa with 20 samples.

Results

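Transcripts of 8 genes of cortisol synthesis were described in the adrenal glands of 20 adult German Landrace pigs: the cholesterol carrier STAR, the cytochromes P450 CYP11A1, CYP17A1 and CYP21A2, and their electron partners POR, CYB5A, FDX1 and FDXR. The 8 genes were chosen by name as members of this pathway, out of 13588 gene symbols with a transcript probe set on the array. They carried 26 of the 45864 transcript probe sets, and each gene is shown by its probe set of highest mean signal over the 20 arrays. The study compared 10 high-reactive (HR) with 10 low-reactive (LR) pigs, which were selected as extremes of early life coping behavior and by their haplotypes at a QTL on chromosome 12. All animals were of the same breed and developmental stage, and neither the labels nor the methods name a treatment, a batch, a litter or a sex of the single animals. RNA of the whole gland was hybridized to 1 Affymetrix Porcine Snowball array per animal, and the deposited values are log2 signals after robust multichip averaging (RMA).

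Cortisol is made from cholesterol in the adrenal cortex. STAR moves cholesterol to the inner mitochondrial membrane, where CYP11A1 cleaves its side chain to pregnenolone with electrons that pass from NADPH through FDXR (adrenodoxin reductase) to FDX1 (adrenodoxin). In the endoplasmic reticulum CYP17A1 and CYP21A2 hydroxylate the steroid with electrons from POR, the cytochrome P450 oxidoreductase, and CYB5A (cytochrome b5) favors the lyase reaction of CYP17A1, which leads to androgens. Among the 8 genes, FDXR lies on chromosome 12 of Sscrofa11.1 in the RefSeq annotation (chr12:6372224-6382769). Its place relative to the QTL was not examined. The others lie on different chromosomes, STAR at chr15:48377597-48385398, CYP17A1 at chr14:113805616-113820445, POR at chr3:10212734-10272184, CYB5A at chr1:149737584-149773222 and FDX1 at chr9:38376147-38399026, apart from CYP11A1 (chr7:59172829-59188479) and CYP21A2 (chr7:24086138-24089364), which share chromosome 7.

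The array of animal HR2835 stood apart from the others. Its mean correlation with the other arrays was 0.937, while the remaining 19 arrays lay between 0.978 and 0.983, and the mean of its 69 antigenomic background probe sets, which match no pig transcript by design, was 3.79 against 4.07 to 4.24 in the other HR animals and 3.89 to 4.19 in LR. Results are therefore given with and without HR2835. The array medians lay between 4.74 and 4.81, and the number of arrays limits the precision. Since a log2 signal depends on its probes, levels are compared between animals and never from gene to gene.

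Of the genes of the mitochondrial step, the brightest probe sets of STAR, CYP11A1 and FDX1 varied little between animals and that of FDXR varied more. STAR had a lowest, median and highest log2 signal of 13.20, 13.41 and 13.57 in HR and of 13.20, 13.45 and 13.65 in LR. CYP11A1 had 12.90, 13.22 and 13.32 in HR and 13.17, 13.21 and 13.31 in LR. Its lowest value belonged to HR2835, whereas the other HR animals began at 13.12 and spanned the whole LR range. FDX1, the electron carrier of CYP11A1, had 12.83, 12.88 and 12.92 in HR and 12.81, 12.92 and 13.05 in LR. Among the probe sets shown it had the narrowest range, 0.24 on the log2 scale or 1.18-fold over all 20 animals. Its HR values lay within the range of LR. FDXR, which reduces FDX1, had 8.87, 9.92 and 10.23 in HR and 9.45, 9.84 and 10.03 in LR. FDXR thus spanned 2.56-fold, and its lowest value again came from HR2835. The other probe sets of FDX1 had wider ranges over all 20 animals, 11.51 to 12.16 and 8.70 to 9.14. Those of CYP11A1 were also wider, 12.01 to 12.51 and 10.08 to 11.23. For STAR they differed, from 12.89 to 13.32 (SNOWBALL_020928_s_st) up to 4.97 to 7.82 for the dimmest.

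Of the microsomal enzymes, CYP17A1 had a lowest, median and highest log2 signal of 13.34, 13.56 and 13.68 in HR and of 13.43, 13.56 and 13.67 in LR, a span of 1.26-fold. CYP21A2 had 13.08, 13.54 and 13.84 in HR and 13.29, 13.58 and 13.88 in LR, a span of 1.74-fold. Their reductase POR had 10.03, 10.66 and 10.92 in HR and 10.53, 10.83 and 11.096 in LR. HR2835 was the lowest of all 20 animals for these 3 genes, and the other animals of both groups overlapped. CYB5A had 7.03, 7.42 and 7.95 in HR and 6.87, 7.44 and 8.32 in LR. Among the probe sets shown it was the most variable with a span of 2.73-fold, and here the extremes were 2 LR animals.

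**Figure D1:**
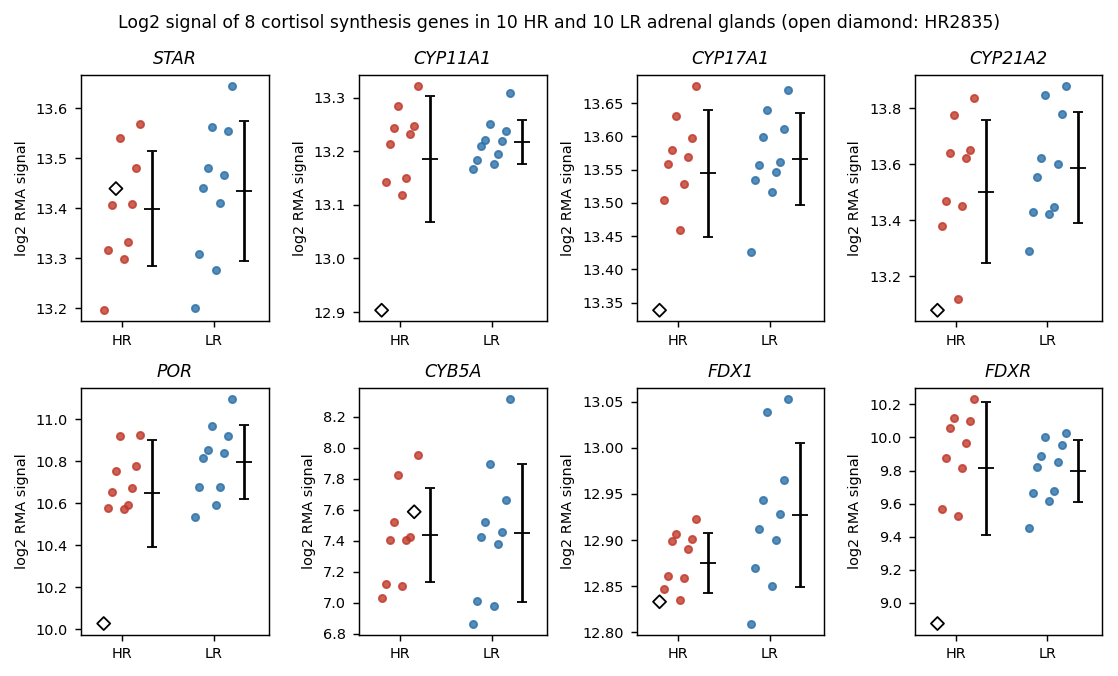
Log2 RMA signal (vertical axes, scaled for each gene) of the 8 genes in 10 HR and 10 LR animals, 1 point per animal, with the group mean and SD as a bar beside the points and HR2835 as an open diamond. HR and LR overlap for every gene, and HR2835 is lowest for CYP11A1, CYP17A1, CYP21A2, POR and FDXR but not for STAR, CYB5A or FDX1.

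The spread between animals was set against that of other probe sets in the brightest 10% of the transcript probe sets, to which all members but CYB5A belong. For the probe sets shown, the SD within groups was 0.059 for FDX1, 0.083 for CYP17A1, 0.089 for CYP11A1 and 0.13 for STAR. Only 0.218%, 0.698%, 0.85% and 3.88% of the bright probe sets, in this order, had a smaller one. By contrast, CYP21A2 (SD 0.23, 32.0% smaller), POR (SD 0.22, 28.3% smaller) and FDXR (SD 0.31, 61.0% smaller) varied like many other bright probe sets. Without HR2835 the share with a smaller SD was 13.3% for STAR, 0.262% for CYP11A1, 0.545% for CYP17A1, 0.392% for FDX1, 51.4% for CYP21A2, 26.9% for POR and 55.3% for FDXR. CYB5A had an SD of 0.38, above that of 79.8% of all transcript probe sets. FDX1, CYP17A1, CYP11A1 and STAR had means of 12.90 to 13.56, CYP21A2 with its larger SD had 13.54, and the highest signal in the table was 14.34. The part of the upper end of the scale in their small SD was not tested.

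The probe sets of the pathway were mostly at the low end in HR2835. Of the 26 probe sets of the 8 genes, 15 (57.7%) were below all 19 other arrays in HR2835 and 1 was above, whereas 23.5% of all transcript probe sets were below and 18.0% above. Relative to the mean of the other 9 HR animals, HR2835 differed by -1.04 for FDXR, -0.69 for POR, -0.47 for CYP21A2, -0.31 for CYP11A1 and -0.23 for CYP17A1, but by 0.045 for STAR, 0.17 for CYB5A and -0.047 for FDX1. All 5 probe sets of POR and all 4 of CYP21A2 were below the other arrays. The probe sets of STAR did not move together in this animal, since one of them (SNOWBALL_022766_s_st) lay at 12.64, below all others, and another (SNOWBALL_020899_s_st) at 13.03, above all others. Low values in HR2835 were not particular to the 8 genes. Its summed linear signal was the lowest of 20 for listed genes of cholesterol delivery, NADPH supply, heme synthesis and iron-sulfur cluster assembly. It was also lowest for the cytochrome b5 group, ACTH signaling and regulation, and markers of capsule, smooth muscle and endothelial cells. From the lowest, it ranked 5 for other enzymes that take electrons from POR, 3 for red blood cell and adipocyte markers and 16 for chromaffin markers. These comparisons concern 1 animal and were not tested.

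None of the 8 genes passed the test between HR and LR. In limma over all 47722 probe sets, 0 probe sets (0%) had an adjusted p under 0.05, and 1741 (3.65%) had an unadjusted p under 0.05, of which 958 (2.01%) were higher and 783 (1.64%) lower in HR. Of the 26 probe sets of the pathway, 0 reached an unadjusted p under 0.05. With all animals, the largest difference among the 8 genes was that of POR, with a mean ± SD over 10 animals of 10.65 ± 0.25 in HR and 10.80 ± 0.18 in LR. This difference was -0.15 (SE 0.10, 95% confidence interval -0.36 to 0.06, unadjusted p = 0.148 in limma). Without HR2835 it was -0.081, and FDXR then had the largest difference. With a covariate, the difference of POR was -0.24 for the Y-linked gene EIF1AY (unadjusted p = 0.0069, adjusted p = 0.704 in limma) and -0.23 for the background mean of the array (unadjusted p = 0.00155, adjusted p = 0.628 in limma). Of all probe sets, 6.92% (3.57% lower in HR) had an unadjusted p under 0.05 with EIF1AY and 7.68% (3.86% lower in HR) with the background mean. With the background mean and without HR2835 the difference of POR was -0.20. EIF1AY was the 1 measured gene of 7 listed Y-linked genes. Its highest value, 8.68, was that of HR2835, beside 7.59 to 8.08 in the other HR animals and 7.44 to 8.59 in LR. A fit with EIF1AY and without HR2835 was not run. Since the sex of the animals is not given, this covariate does not stand for a known sex. For CYP21A2 the difference was -0.085 (interval -0.30 to 0.13), and -0.038 without HR2835.

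The intervals were narrow for the enzymes whose brightest probe set had a small spread. CYP17A1 differed by -0.022 (interval -0.14 to 0.10), CYP11A1 by -0.031 (interval -0.16 to 0.09) and STAR by -0.035 (interval -0.18 to 0.11). Without HR2835 the differences were 0.0011 for CYP17A1, -7e-06 for CYP11A1 and -0.040 for STAR. FDX1, with a mean ± SD over 10 animals of 12.88 ± 0.032 in HR and 12.93 ± 0.077 in LR, differed by -0.052 (interval -0.16 to 0.06). For FDX1 a permutation test of the single value gave p = 0.066, the smallest of the 8 genes. Limma gave FDX1 an SE of 0.053 and an unadjusted p of 0.344. It draws the variance of each probe set toward a value estimated from all probe sets, so these intervals do not rest on the gene's own spread alone. The wide intervals were those of FDXR, at 0.017 (-0.26 to 0.30), and of CYB5A, at -0.012 (-0.34 to 0.32), both of which changed sign under other settings. Without HR2835 the difference of FDXR was 0.12 (unadjusted p = 0.237 in limma).

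The other probe sets of the same genes did not pass either. The difference was below 0 for 25 of 26 probe sets, with a median of -0.049 and a range of -0.22 to 0.017, beside a median of 0.0022 over all probe sets tested and of -0.013 over those above the median level, of which 10735 of 23861 were higher in HR. Without HR2835, 20 of 26 were below 0 and 6 above, with a median of -0.031, and again 0 of 26 reached an unadjusted p under 0.05, against 7.89% of all probe sets. Probe sets of a gene share its RNA and are not independent. The probe set nearest to the threshold was a dimmer one of CYP11A1 (SNOWBALL_025898_st), with a difference of -0.22 and an unadjusted p of 0.0505 in limma, while the probe set that stands for CYP11A1 differed by -0.031.

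**Figure D2:**
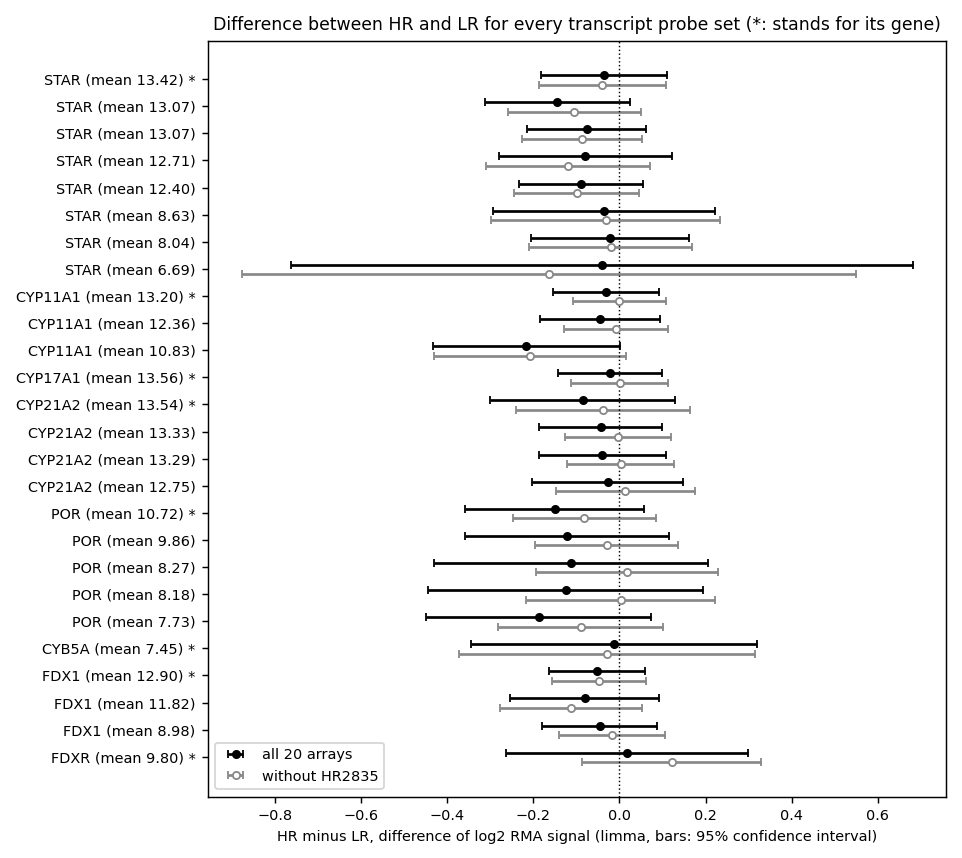
Difference of log2 RMA signal, HR minus LR, for all 26 transcript probe sets of the 8 genes, with 95% confidence intervals from limma over all 20 arrays (filled) and without HR2835 (open); the mean log2 signal stands beside each gene and a star marks the probe set that stands for it. Most points lie slightly below 0, and the intervals with all arrays include 0.

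Although the levels of the groups overlapped, several members moved together between the animals of HR. Over the 28 pairs of members, Pearson's r had a median of 0.287 in HR and of -0.13 in LR, with 20 positive pairs in HR and 12 in LR. Without HR2835 the median in HR was 0.130, with 16 positive pairs. Of the 56 relations computed, 6 passed the permutation test after Benjamini-Hochberg adjustment. They were the 6 pairs among CYP11A1, CYP17A1, POR and FDXR in HR, and 0 pairs passed in LR, where 3 had an unadjusted p under 0.05. The same 6 pairs and no other passed with Spearman's rho. The 4 genes stand for both sites of the pathway, since CYP11A1 and FDXR act in the mitochondrion and CYP17A1 and POR in the endoplasmic reticulum.

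With the brightest probe sets, the closest pair in HR was CYP11A1 and the reductase of its electron chain, FDXR. Their correlation in HR was r = 0.979 (n = 10, permutation p = 1e-05, the smallest that the permutations can give, adjusted p = 0.00056), while rho was 0.964 (permutation p = 2e-05), and r was 0.909 when the 2 animals with the most extreme CYP11A1 values were dropped. It remained at r = 0.935 without HR2835 (n = 9, exact permutation p = 9.9e-05, adjusted p = 0.0056). With the mean over the probe sets of a gene it was r = 0.728 in HR and no longer passed, like every pair of CYP11A1, and POR with FDXR was the closest pair at r = 0.946. In LR CYP11A1 and FDXR had r = -0.45 and rho = -0.19 (n = 10, permutation p = 0.201). Thus animals with more CYP11A1 signal had more FDXR signal in HR, and no such order was seen in LR, where CYP11A1 spanned only 13.17 to 13.31.

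CYP11A1 and CYP17A1, which act in sequence, had r = 0.953 in HR (permutation p = 7e-05, adjusted p = 0.00196), while rho was 0.927 (permutation p = 0.00043), with r at 0.844 without the 2 farthest animals and 0.892 without HR2835 (n = 9, exact permutation p = 0.00146, adjusted p = 0.041). Their r in LR was 0.22 (permutation p = 0.525). CYP17A1 and its reductase POR had r = 0.926 in HR (permutation p = 0.00026, adjusted p = 0.0029) and 0.315 in LR (permutation p = 0.376). For CYP11A1 with POR r was 0.953 in HR and 0.038 in LR, for CYP17A1 with FDXR 0.935 in HR and 0.33 in LR, and for POR with FDXR 0.932 in HR and 0.738 in LR. These last 4 pairs no longer passed without HR2835, with r between 0.780 and 0.837 over the remaining 9 HR animals and adjusted p from 0.073 to 0.129 in exact permutation tests.

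**Figure D3:**
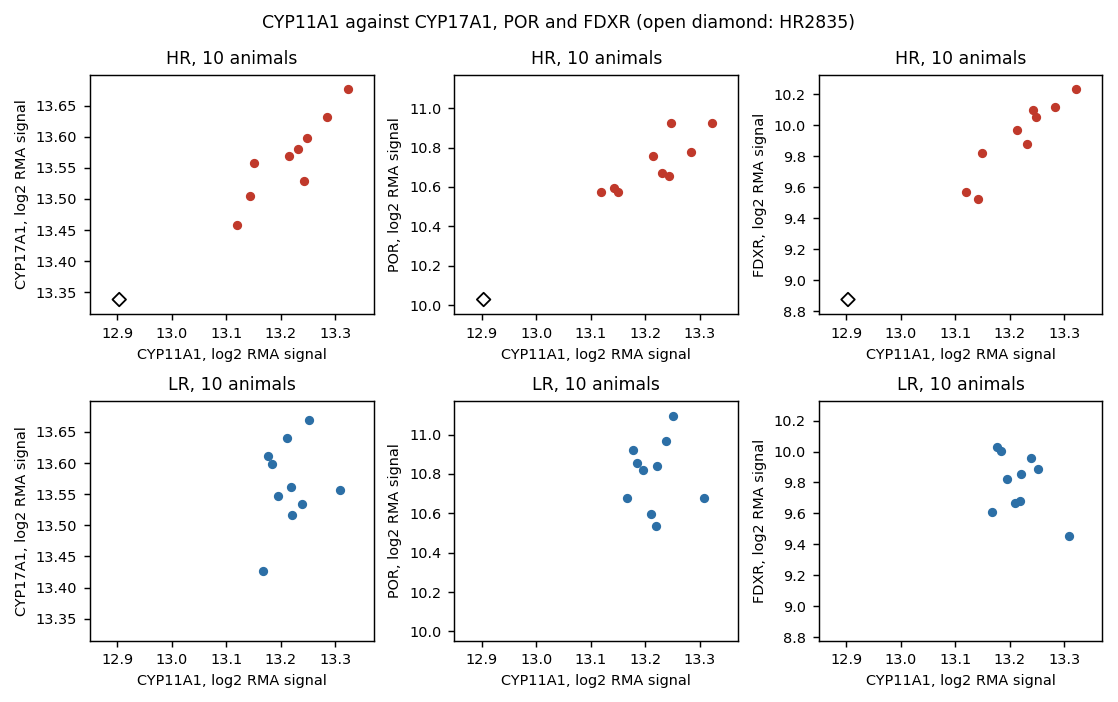
CYP11A1 (horizontal axes) against CYP17A1, POR and FDXR (vertical axes), all in log2 RMA signal, in HR (upper row) and LR (lower row), 1 point per animal and HR2835 as an open diamond. In HR the points rise together with HR2835 at the lower end, with r of 0.953, 0.953 and 0.979, and in LR they do not, with r of 0.22, 0.038 and -0.45.

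A correlation that passes in HR and not in LR need not differ between them. When the group labels were permuted on values standardised within each group, the difference of r between HR and LR had unadjusted p of 0.0113 to 0.0159 for CYP17A1 with FDXR and for CYP11A1 with POR, FDXR and CYP17A1, and an adjusted p of 0.112 for each of them in this permutation test. Thus 0 of 28 pairs passed, and without HR2835 the smallest adjusted p was 0.340 in the exact permutation test.

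The remaining partner pairs did not pass. CYP11A1 and FDX1, its direct electron donor, had r = 0.668 in HR (permutation p = 0.0199, adjusted p = 0.102) and 0.629 in LR (permutation p = 0.0501, adjusted p = 0.216), and FDX1 and FDXR had 0.689 in HR (permutation p = 0.0176, adjusted p = 0.102) and -0.42 in LR. STAR and CYP11A1, which deliver and cleave cholesterol, had 0.159 in HR, where r was 0.487 without HR2835, and 0.647 in LR (permutation p = 0.0399, adjusted p = 0.186). STAR and FDXR had 0.20 in HR (0.535 without HR2835) and -0.72 in LR (permutation p = 0.0201, adjusted p = 0.102), and without LR2579 the r in LR was -0.89 and passed. For the brightest probe sets of CYP21A2 and its reductase POR, r was 0.368 in HR and -0.11 in LR. The HR value was -0.31 without HR2835. With CYP17A1, CYP21A2 had 0.257 in HR and 0.104 in LR. These values depended on the probe set. When the mean over the probe sets of a gene was used, CYP21A2 had r = 0.703 with POR in HR and 0.228 in LR. Its r with CYP17A1 was then 0.545 in HR and 0.019 in LR, and none of these passed.

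The correlations of CYB5A with the other members were mostly negative. With the brightest probe sets its r was negative with all 7 others in HR, between -0.61 and -0.13, and with 6 of 7 in LR, the exception being CYP21A2 with 0.29. With CYP17A1, whose lyase reaction it favors, CYB5A had r = -0.61 in HR (permutation p = 0.0601, adjusted p = 0.229) and -0.57 in LR (permutation p = 0.0844, adjusted p = 0.278). With POR it had -0.51 in HR and -0.48 in LR. None of these relations passed, and with the mean over the probe sets of a gene r in HR was 0.234 with STAR and 0.380 with FDX1.

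**Figure D4:**
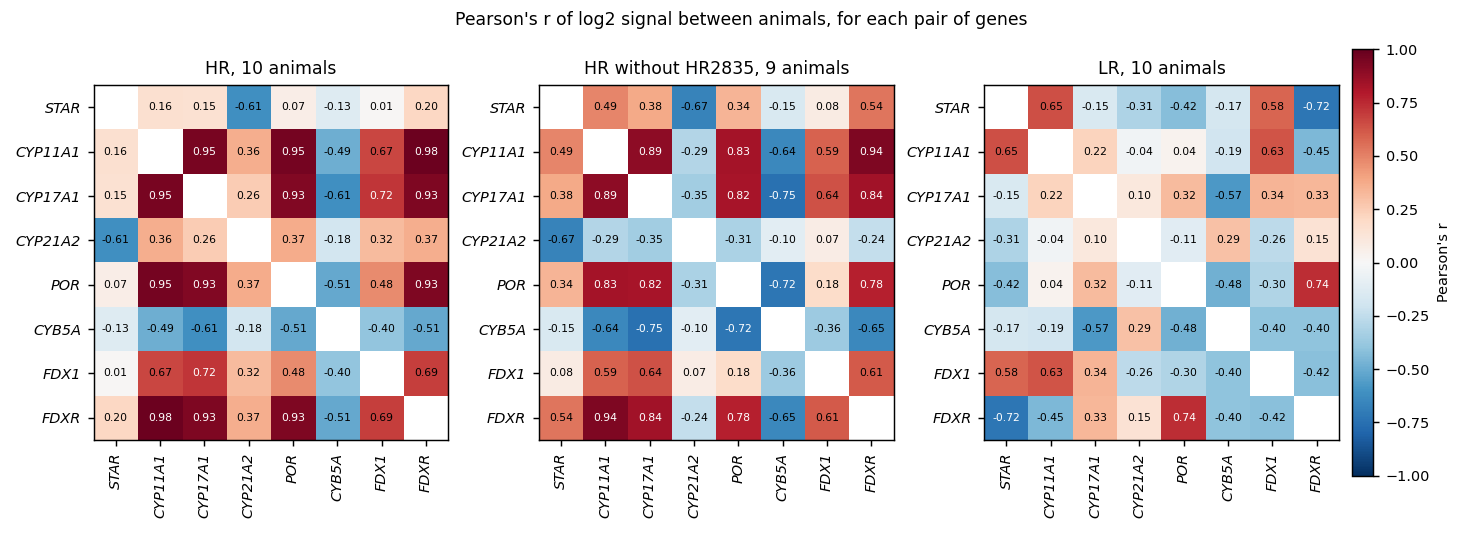
Pearson's r of log2 signal between animals for each pair of the 8 genes, in HR (left), in HR without HR2835 (middle) and in LR (right), with red for positive and blue for negative values on a scale from -1 to 1. CYP11A1, CYP17A1, POR and FDXR form a red block in HR that is paler without HR2835, LR lacks it apart from POR with FDXR, and the CYB5A column is blue in nearly every cell.

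The background signal of the arrays moved with some of the members. In HR, the r with the mean of the antigenomic background probe sets of the same array was 0.846 for POR, 0.784 for CYP17A1, 0.765 for CYP11A1 and 0.758 for FDXR, and without HR2835 it was 0.349 for POR, 0.361 for CYP17A1, 0.067 for CYP11A1 and 0.110 for FDXR. In LR the signal of POR followed this mean, with r = 0.913 and rho = 0.903 (n = 10, permutation p = 0.00023, adjusted p = 0.0037), the 1 of 16 such relations that passed. FDXR had 0.747 in LR (permutation p = 0.0143, adjusted p = 0.066) and STAR -0.66 (permutation p = 0.0393, adjusted p = 0.097). After the background mean was regressed out, 6 pairs passed in HR (4 without HR2835). In LR, POR with FDXR then had r = 0.207, and STAR with CYP11A1 passed with r = 0.809. The permutation tests of these residuals made no allowance for the background fit, so their p-values can be too small. What sets the background signal of an array was not tested.

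**Figure D5:**
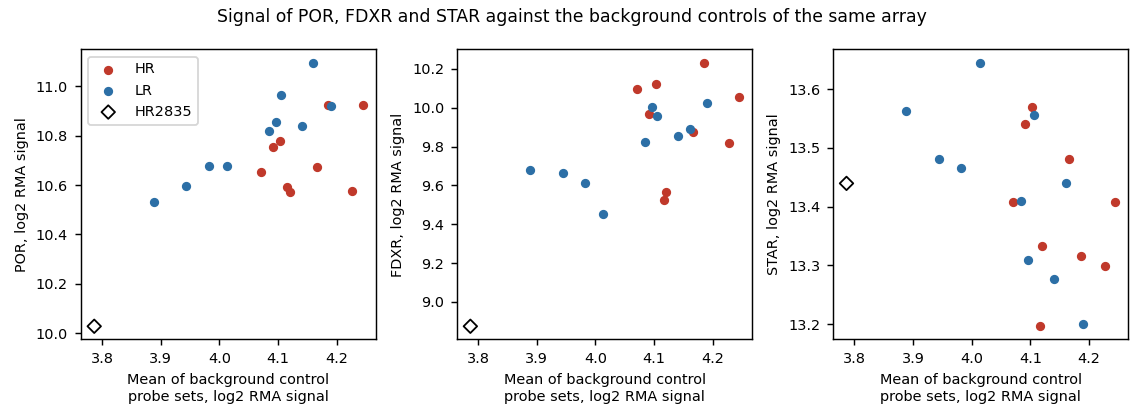
Log2 RMA signal of POR, FDXR and STAR (vertical axes) against the mean log2 signal of the 69 antigenomic background probe sets of the same array (horizontal axes) in HR, LR and HR2835 (open diamond). POR rises with the background in LR (r = 0.913), STAR has r = -0.66 there, and HR2835 lies at the lowest background, 3.79.

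The gland holds medulla as well as cortex, and in whole glands fewer cells of a type and less RNA per cell cannot be told apart. Chromaffin markers of the medulla were measured for 10 of 12 genes, and 8 of 10 were higher in HR with 0 passing. Their mean log2 signal ranged from 9.30 to 10.01 in HR and from 8.91 to 10.07 in LR. None of the 16 correlations between a member and this mean passed, with r from -0.36 to 0.42 and a smallest adjusted p of 0.992 in the permutation test. Markers of the capsule and of fibroblasts were below LR in HR for 8 of 8 genes, with a median difference of -0.34, of which 2 had an unadjusted p under 0.05 in limma, lumican (LUM, -0.66) and decorin (DCN, -0.35), beside 1.64% of all probe sets. Without HR2835 the median was -0.23 and 1 of them, LUM, had such a p, beside 1892 of all 47722 probe sets lower in HR. Their summed linear signal was 2448 to 7148 in HR, with the lowest value in HR2835 and 5101 as the lowest of the others, and 4605 to 9071 in LR. Markers of red blood cells were higher in HR for 4 of 4 genes, though EPB42 differed by only 0.0041. Its mean log2 signal, 3.93, lay within the range of the background means of the arrays, 3.79 to 4.24, and that of SLC4A1 was 4.35. Of the 4 genes, ALAS2 had an unadjusted p under 0.05 (0.41, p = 0.018 in limma), beside 2.01% of all probe sets higher in HR. Without HR2835 it differed by 0.46 (unadjusted p = 0.0099 in limma), beside 1873 of 47722 probe sets higher in HR with an unadjusted p under 0.05. Zona glomerulosa markers were lower in HR for 3 of 4 genes, with 0 at an unadjusted p under 0.05. The part of the capsule or of other cells in the values of the 8 genes was not tested.

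How well the probe sets of a gene agreed over animals differed between genes. For POR the other 4 probe sets had r of 0.945 to 0.973 in HR and of 0.37 to 0.969 in LR with the brightest one. For CYP11A1 the second probe set had 0.970 in HR and 0.545 in LR, but the dimmest had 0.236 in HR and -0.49 in LR. The 3 other probe sets of CYP21A2 had 0.761 to 0.849 in HR and 0.047 to 0.391 in LR. The other 4 probe sets of STAR with a mean above 12 had 0.414 to 0.696 in HR and 0.839 to 0.915 in LR. For FDX1, r was -0.43 and 0.269 in HR and 0.434 and 0.629 in LR. CYP17A1, CYB5A and FDXR had 1 probe set each.

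The genes most like each member over the 19 arrays without HR2835 were taken from 10088 genes, as a description that includes shared effects of the array. POR had the closest, with CIB1 (r = 0.931), COPS7A (0.927) and DNLZ (0.925). STAR was most like SMN1 (0.873) and RAN (0.869), CYP17A1 most like MECR (0.856), FDXR most like PDZK1IP1 (0.831) and CYP11A1 most like ITPR3 (0.823). The lowest top values were those of CYP21A2 with NOTCH4 (0.794), CYB5A with GTPBP8 (0.771) and FDX1 with ARL9 (0.764). No member was among the 3 genes most like another, and the nearest was POR, at rank 57 for FDXR with r = 0.734. For CYP11A1, CYP17A1 was at rank 225 (r = 0.589), FDXR at 760 (0.456) and POR at 905 (0.432). Many other genes thus followed CYP11A1 more closely than these 3 members did. These r values pool both groups after subtraction of the group means.

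Genes that serve the same pathway did not pass between HR and LR either. Of 71 genes listed beside the members, 47 had a probe set under their symbol, and with all animals 0 had an adjusted p under 0.05 and 0 an unadjusted one in limma, so that higher and lower stand here only for the sign of a difference. The 6 listed symbols of the remaining cortisol and aldosterone enzymes, among them HSD3B2 and CYP11B1, matched no probe set and were not analysed here. For cholesterol delivery, 5 of 11 measured genes were higher and 6 lower in HR, and SCARB1, the receptor that takes up lipoprotein cholesterol, differed by -0.054. Of the factors of ACTH signaling and steroidogenic regulation, among which the ACTH receptor MC2R itself had no probe set under its symbol, 2 of 7 were higher, among them NR0B1 (DAX1), a repressor of steroidogenic genes, with 0.23 (SE 0.12, unadjusted p = 0.058 in limma), and 5 lower, among them the cAMP-responsive factor CREM with -0.81 (SE 0.43, unadjusted p = 0.074 in limma). NR5A1, the factor that drives the steroidogenic P450 genes, differed by -0.030 and MRAP, the accessory protein of the ACTH receptor, by -0.057.

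Among genes of electron and cofactor supply, all 4 measured genes of the cytochrome b5 group were lower in HR, with CYB5B, the mitochondrial cytochrome b5, at -0.17 (SE 0.10) and PGRMC1 at -0.075. Of the NADPH-producing genes, 1 of 6 was higher and 5 lower, with NNT, the mitochondrial transhydrogenase, at -0.22 (SE 0.12, unadjusted p = 0.079 in limma) and the malic enzyme ME3 at 0.031. Heme synthesis had 3 of 7 genes higher, with FECH, which inserts the iron, at 0.023, and iron-sulfur cluster assembly, which serves FDX1, had 5 of 7 higher, with GLRX5 at -0.17. Of these, HSCB and ISCU had means over all arrays (log2 signal 3.69 and 3.77) below the lowest background mean of an array, 3.79. On that array, HR2835, the signal of ISCU itself was 4.01. Of other enzymes that take electrons from POR, 2 of 5 were higher, with CYP51A1 at -0.13 and SQLE at 0.022. These counts rested in part on HR2835, without which 7 of 11 genes of cholesterol delivery, 4 of 7 of ACTH signaling and regulation, 2 of 4 of the cytochrome b5 group, 3 of 6 of NADPH supply, 5 of 7 of heme synthesis, 5 of 7 of iron-sulfur assembly and 3 of 5 of the other POR partners were higher in HR. Without HR2835, 6 of the 47 genes had an unadjusted p under 0.05 (TSPO, ACBD3, HSCB, BOLA3, NR0B1 and CREM) and 0 an adjusted one, against 7.89% and 0% of all probe sets.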

How the data were processed

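Adrenal glands of 10 HR and 10 LR pigs were profiled with 1 Porcine Snowball array per animal, and each array was assigned by the animal's name in the labels. The authors normalized the arrays by RMA and deposited log2 values, with GCOS 1.1.1 named in the submitters' processing notes, and these were used as they stand. The detection filter of the study was not repeated. Of 47845 probe sets, 123 controls were left out. Symbols come from the platform annotation and positions from RefSeq (Sscrofa11.1) by symbol. The 8 members and all lists were chosen with earlier results of these data known. HR and LR were compared with limma 3.58.1 in R 4.3.3 (lmFit, eBayes) without covariates, and p-values were adjusted by Benjamini-Hochberg over 47722 probe sets at a threshold of 0.05. Correlations were computed within each group, with two-sided permutation tests of 100000 resamples, or all 362880 orders for 9 animals, adjusted over 56 relations between members and over 16 relations with the chromaffin mean or with the background mean. All p-values rest on the spread between single animals, which limma combines with a variance estimated from all probe sets.

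Alternatives were quantile normalization, median centring, probe sets above the median level, a trended and robust variance, array weights, chromaffin, Y-linked and background covariates, a gene's mean over its probe sets, Spearman's rho and leaving out each animal. The background covariate, its removal from correlations, the agreement of probe sets and the test of HR against LR correlations were added after the data were seen. Named were all members, the partner pairs, the 3 pairs with the smallest p in each group, and from the other lists, of which a part is printed, the 2 genes with the smallest p and the 2 brightest of each. The genes below 0.05 without HR2835, TSPO, ACBD3 and BOLA3 among them, and LUM, DCN and ALAS2 were named after their values were seen. On simulated data with 10 arrays a group, limma called 42 of 67 changes of 0.5, 62 of 67 of 1 and 66 of 66 of 2 on the log2 scale, with 10 false calls. The simulated noise was independent between probe sets and held no outlying array, so these counts do not give the power of the real comparison.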

Additional observations from a re-analysis of the deposited data

Results flagged for a closer look

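Within the 10 HR animals, 1 animal lay far from the others for 3 of the 8 genes. For CYP11A1 HR2835 had a log2 signal of 12.90, and the gap to the nearest HR animal made up 0.515 of the range of the group. For POR it had 10.03 with a gap of 0.610 of the range, and for FDXR 8.87 with a gap of 0.479; all 3 gaps are above the critical value of Dixon's test for 10 samples. Chance flags about 1 in 20 groups, and the 3 genes come from the same array, which also stood apart over all probe sets and in its background signal. Whether the array, the RNA or the animal sets these values was not tested.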

How the results depend on the processing

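Over the alternatives, 0 of the 8 genes passed between HR and LR, and the count over all probe sets was 0 except for 1 probe set, no member, with the background covariate without HR2835. The number of arrays limits what can be seen, and near-zero differences changed sign. For CYB5A the difference was 0.0068 after quantile normalization, 0.016 with the Y-linked covariate, 0.027 with the background covariate and 0.065 with it and without HR2835. FDXR differed by -0.091 with the Y-linked and -0.085 with the background covariate, and STAR by 0.032 with the background covariate without HR2835. With an animal left out, the ranges were -0.077 to 0.084 for CYB5A, -0.029 to 0.12 for FDXR, -0.037 to 0.0011 for CYP17A1 and -0.061 to 0.032 for STAR (the last including the background covariate).

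The number of HR pairs passing was 3 with a gene's mean over its probe sets (the pairs among CYP17A1, POR and FDXR, while CYP11A1 no longer passed at 0.613 with CYP17A1, 0.687 with POR and 0.728 with FDXR), and 2 to 9 with an animal left out (2 without HR2835, 9 without HR2897). In LR 1 pair passed with background removed, and 0 to 1 with an animal left out (1 without LR2579). Over all 28 pairs, the sign of r changed for 8 in HR and 6 in LR with gene means, 5 and 6 after quantile normalization, 1 and 3 with background removed, 2 and 1 with Spearman's rho, and 4 in HR without HR2835. Among the partner pairs and the 3 pairs with the smallest p in each group, those of HR were STAR with CYP11A1 (-0.046, gene mean), CYP11A1 with FDX1 (-0.18, quantile, and -0.0093, gene mean), FDX1 with FDXR (-0.052, quantile), CYP17A1 with CYP21A2 (-0.018, Spearman, -0.11, background removed, and -0.27, the same without HR2835) and CYP21A2 with POR (-0.24, background removed without HR2835). Of the other pairs printed, STAR with FDXR in HR had -0.22 with gene means, and CYP11A1 with POR in LR had -0.034 after quantile normalization and -0.26 with gene means. In LR the partner pairs that changed sign were CYP11A1 with CYP17A1 (-0.093) and with FDX1 (-0.014) after quantile normalization, CYP17A1 with CYP21A2 (-0.055, Spearman) and CYP21A2 with POR (0.046, quantile, and 0.228, gene mean). With an animal left out, the ranges were -0.12 to 0.405 for CYP11A1 with CYP17A1, -0.69 to 0.093 for CYP11A1 with FDXR, -0.46 to 0.317 for CYP17A1 with CYP21A2 and -0.29 to 0.0835 for CYP21A2 with POR in LR, and -0.35 to 0.387 and -0.31 to 0.474 for the last 2 pairs in HR. Of the 47 other pathway genes, 1 had an unadjusted p under 0.05 after quantile normalization, and 0 to 6 with an animal left out (6 without HR2835, 2 without HR2797). Of all 47722 probe sets, 893 were higher and 783 lower in HR at such a p after quantile normalization. The count was 975 higher and 880 lower without HR2797, and the share was 7.89% in either direction without HR2835. The causes were not tested. No paired analysis was possible because the groups share no animal numbers.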
